A study of Mus musculus with 18 samples.

Results

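Dermal cells of the head and of the belly of adult mice were compared over 18193 genes, as 3 arrays titled Cranial against 3 arrays titled Ventral, 6 of the 18 arrays of the series. The 6 arrays were taken by their titles alone, and each difference is Cranial minus Ventral on the log2 scale, so that a difference of 1 is a doubling. Cranial cells came from cranial dermis of Wnt1Cre; R26mTmG mice, and Ventral cells from ventral dermis of En1Cre; R26mTmG mice. All were untreated and from postnatal day 30 per the labels. The R26mTmG allele, which both groups carry, makes every cell red until Cre recombines it and then marks the cell and its descendants green. The sort took green, not red, cells without staining for CD31, CD45, Tie2, EpCAM, a marker spelled Tie119, or DAPI. Site and reporter line coincide in this comparison, so the difference of body site, the difference of Cre driver and any difference between the mouse lines cannot be told apart. The labels do not say whether the 3 arrays of a group came from separate animals, and p-values measure only the spread between these arrays, which may be technical. Oral mucosa of the Wnt1Cre line and Dorsal dermis of the En1Cre line, 3 arrays each at the same age and with the same sort, entered the fit and serve below as a second pair of sites with the same pair of lines.

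Fibroblasts of the skin keep a memory of where in the body they arose. Dermis of the face and scalp descends largely from the cranial neural crest, a population that expresses Wnt1 early in development, whereas dermis of the trunk comes from mesoderm and part of it passes through a stage that expresses Engrailed-1. Hox genes, which lie in 4 clusters and are numbered by their order along them, are switched on in nested domains along the body axis, with high numbers toward the tail, while much of the face forms from crest cells that express none of them.

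The defining markers were checked first. General fibroblast genes were abundant at both sites, with a mean level over 16 such genes of 12.21 to 12.51 in Cranial arrays and 11.55 to 12.06 in Ventral arrays. Pdgfra, a growth factor receptor of dermal fibroblasts, was at 12.36, 12.24 and 12.56 in Cranial arrays, against 10.71, 11.94 and 11.96 in Ventral arrays, and was not called (adjusted p = 0.0772 in limma). A level is called near background here when its group mean is at or below the highest lower quartile of the 6 arrays, 4.08. The genes of CD31 and CD45, proteins used to remove endothelial and blood cells, were at or just above it (Pecam1 at 3.73 to 3.83 in Cranial and 4.0 to 4.14 in Ventral, Ptprc at 3.76 to 3.99 in Cranial and 4.18 to 4.27 in Ventral). Tek, the gene of Tie2, was at 4.32, 4.08 and 4.40 in Cranial, against 3.96, 3.68 and 3.61 in Ventral. The reporter marks cells by descent, whether or not they still express the Cre driver's gene: En1 was near background, at 3.89 to 4.16 in Cranial and 3.68 to 3.88 in Ventral, and Wnt1 was dim, at 4.86 to 5.25 and 5.32 to 5.53. Dpp4, which encodes CD26 of papillary and progenitor fibroblasts, was at 4.55 to 4.64 in Cranial arrays and 4.22 to 4.83 in Ventral arrays. Epcam gave 8.23 to 8.60 in Cranial and 8.60 to 8.71 in Ventral on its brighter probe set although the sort removed EpCAM-positive cells, while Krt14, a keratin of basal keratinocytes, was at 4.67 to 4.88 and 4.96 to 5.26.

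Ventral 1 stood apart. Across genes it correlated with Ventral 2 and Ventral 3 at r = 0.982 and 0.981, against 0.997 between Ventral 2 and Ventral 3 and 0.997 to 0.998 among the Cranial arrays. In Ventral 1, 222 genes lay at least 2-fold above the mean of the other two Ventral arrays and 433 at least 2-fold below it. Results that rest on it are given with and without it. The added controls for hybridization averaged 9.27 to 9.33 in Cranial arrays and 9.61 to 9.95 in Ventral arrays, so these controls parted the groups too, and the part of array handling in the differences was not tested. The 3′ minus 5′ difference of the Gapdh control, a sign of RNA quality, was 2.45 to 2.66 in Cranial and 2.27 to 2.61 in Ventral. That of beta actin was 2.02, 2.01 and 2.11 in Cranial and 2.04, 2.40 and 2.84 in Ventral, higher in Ventral 2 and 3 than in any Cranial array, and the part of RNA quality in the differences was not tested. Sex is not labelled. Eif2s3y, a translation factor gene on the Y chromosome, was at 3.30, 3.33 and 3.36 in Cranial arrays and at 7.36, 4.89 and 4.84 in Ventral arrays, while its other probe set was not called (-0.09). The Y-linked genes Kdm5d and Uty were near background in both groups and not called, with means of 3.80 in Cranial and 3.78 in Ventral for Kdm5d and 3.44 and 3.69 for Uty, though 1 of the other 2 probe sets of Kdm5d was called lower in Cranial. Xist, whose RNA coats the silent X of female cells, was at 11.19, 11.14 and 11.33 in Cranial and 10.48, 11.42 and 11.46 in Ventral. The part of sex in the other differences was not tested.

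Limma called 3251 genes, 17.9% of 18193, at an adjusted p under 0.05. Of these, 2123 (11.7%) were higher and 1128 (6.2%) lower in Cranial. The counts of called genes in the lists below are to be read against these shares of all genes. A called difference of at least 2-fold was found for 1088 genes (5.98%), 915 of them higher (5.03%) and 173 lower (0.951%). The larger number of rises depends on the scaling: 65.3% of the called genes were higher with the deposited values, and 52.6% were higher (1878 against 1690) after the columns were quantile normalized again. The 3 Cranial arrays did not overlap the 3 Ventral arrays in 9993 genes (54.9%), lying above them in 4920 (27%) and below them in 5073 (27.9%), so groups that do not overlap are common here. The count of called genes was 8854 with weights for each array's reliability and 6684 in a fit of the 6 arrays alone. It was 1695, 2093 and 1641 without Cranial 1, 2 and 3 in turn, and 2350, 2067 and 2144 without Ventral 1, 2 and 3. Of the genes picked by rule, those given below with a verb of change were called in every one of up to 16 such settings unless a number of settings is given. Among the called genes picked by rule, 96 had more than 1 probe set: in 36 a further probe set was called the same way, in 4 one was called the other way, and in 58 none was called. Among these 58, the other probe sets differed by 0.48 for Igf2, 0.49 for Ptgs2 and 0.13 and 0.24 for Bmp5. They differed by -0.001 and 0.10 for Eya1, -0.27 for Rspo2, -0.013 for Eln, -0.17 for Rarg, 0.06 for Spry2 and -0.26 for Sema3d. A gene given below without a word on other probe sets is therefore not always borne out by them.

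**Figure D1:**
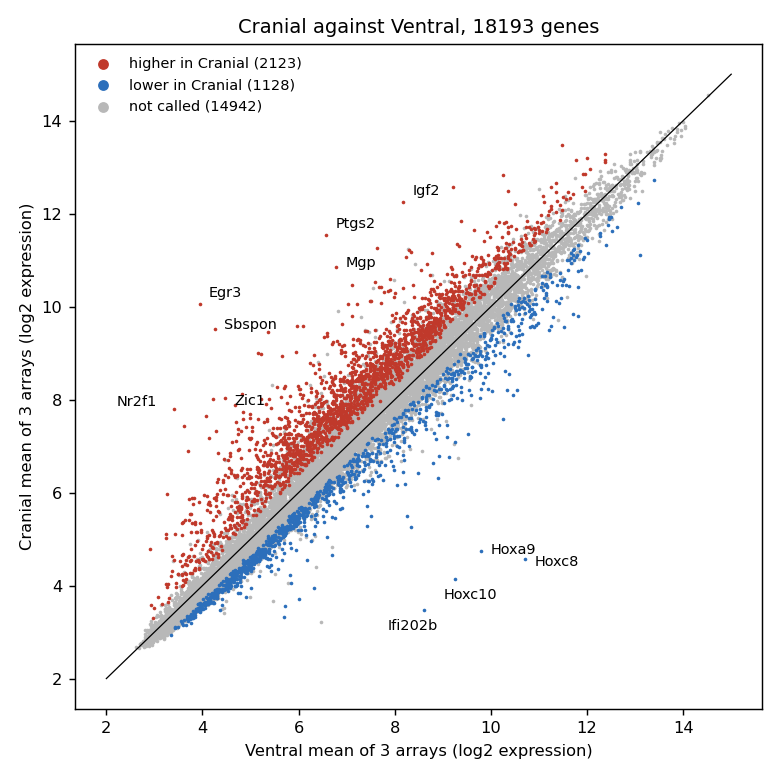
Each point is 1 gene, with its mean log2 expression in 3 Ventral arrays on the horizontal axis and in 3 Cranial arrays on the vertical axis, and the line marks equal levels. The 2123 genes called higher in Cranial are red, the 1128 called lower blue and the others grey; Egr3, Sbspon, Ptgs2 and Nr2f1 lie farthest above the line, and Hoxc8, Hoxc10, Hoxa9 and Ifi202b farthest below it.

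The 12 largest rises ranged from 3.63 (Igfbp2) to 6.11 (Egr3). Egr3, a zinc finger factor of the immediate early class, was at 9.999, 10.04 and 10.12 in Cranial arrays, against 4.27, 3.84 and 3.72 in Ventral arrays, a difference of 6.11 ± 1.01 (SE; limma adjusted p = 0.00255). Its Ventral mean was near background, so the difference on this probe set may be understated, as for every gene below with 1 group near background. Its other probe set was not called (-0.13), and the mean of both gave 2.99. The size on 1 probe set is thus not a minimum for the gene. The SD of Egr3 was 0.06 in Cranial and 0.29 in Ventral but 2.85 in Dorsal, which enters the pooled SE. Sbspon, a secreted protein with somatomedin and thrombospondin repeats, was at 9.61, 9.39 and 9.57 in Cranial arrays and 3.12, 4.90 and 4.78 in Ventral arrays (5.25 ± 0.43, adjusted p = 4.40e-05). Ptgs2, the inducible cyclooxygenase of prostaglandin synthesis, was at 11.54, 11.45 and 11.63 in Cranial arrays, against 9.01, 5.48 and 5.24 in Ventral arrays. Its difference was 4.97 ± 0.81 with all arrays and 6.18 without Ventral 1, the Ventral array in which it was highest. Nr2f1, an orphan nuclear receptor active in neural crest derivatives, was at 7.85, 7.66 and 7.86 in Cranial arrays and 3.57, 3.30 and 3.36 in Ventral arrays, near background (4.38 ± 0.28, adjusted p = 7.17e-06).

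Igf2, the fetal growth factor, was at 12.20, 12.17 and 12.35 in Cranial arrays, against 6.04, 9.31 and 9.19 in Ventral arrays. The groups did not overlap, as in 54.9% of all genes, and the difference of 4.07 ± 0.70 was 2.99 without Ventral 1. Mgp, an inhibitor of calcification in matrix, showed the same order of arrays, at 10.83, 10.91 and 10.80 in Cranial and 5.40, 7.37 and 7.57 in Ventral (4.06 ± 0.43, 3.37 without Ventral 1). Igfbp2, which binds insulin-like growth factors, rose by 3.63 ± 0.68 (11.06, 11.23 and 11.51 in Cranial, 6.55, 8.10 and 8.25 in Ventral). Rtl3, a gene derived from a retrotransposon, rose by 4.09 ± 0.42, and Mecom, a zinc finger regulator, by 3.84 ± 0.26. Angptl1, a secreted protein related to angiopoietins, rose by 3.82 ± 0.32 over a Ventral level near background. Abi3bp, a matrix protein, rose by 3.79 ± 0.65, and Ahr, the receptor of aryl hydrocarbons, by 3.75 ± 0.36. For Mecom, Angptl1 and Ahr the other probe sets were not called, and with all probe sets of a gene averaged the differences were 1.20, 1.31 and 1.80, still called.

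Hox genes led the falls. Hoxc8 was at 4.56, 4.62 and 4.53 in Cranial arrays, against 10.64, 10.64 and 10.86 in Ventral arrays, a difference of -6.14 ± 0.26 (limma adjusted p = 5.08e-07). Hoxc10 was at 3.66, 4.42 and 4.36 in Cranial and 9.69, 8.91 and 9.15 in Ventral (-5.10 ± 0.30). Hoxa9 was at 5.10, 4.51 and 4.63 in Cranial and 9.79, 9.68 and 9.93 in Ventral (-5.05 ± 0.36). In these genes the Ventral arrays, Ventral 1 among them, kept close together and the Cranial arrays lay low. The second largest fall was that of Ifi202b, an interferon-inducible gene whose expression varies between inbred mouse strains, at 3.47, 3.49 and 3.44 in Cranial, near background, and 8.91, 8.40 and 8.52 in Ventral (-5.14 ± 0.28). Dkk2, a secreted regulator of Wnt signalling, was at 5.72, 5.27 and 5.50 in Cranial, against 8.18, 8.44 and 8.16 in Ventral (-2.77 ± 0.51). Cck, the gene of the peptide cholecystokinin, was at 5.13, 5.29 and 5.36 in Cranial and 9.94, 7.57 and 7.49 in Ventral. Its fall was called in 11 of 15 settings and was -2.27 without Ventral 1 (adjusted p = 0.0742). Socs3, an inhibitor of cytokine signalling, was at 7.97, 8.06 and 8.27 in Cranial, against 10.44, 10.31 and 10.61 in Ventral (-2.35 ± 0.40, called in 15 of 16 settings). Rsrc2, a serine- and arginine-rich protein, fell by 2.67 on the log2 scale (15 of 16 settings), but neither of its other probe sets was called. The noncoding Hoxb5os, which overlaps the HoxB cluster, fell by 2.36 (13 of 16 settings), and Eif2s3y, described above, fell by 2.37 (-1.53 without Ventral 1).

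**Figure D2:**
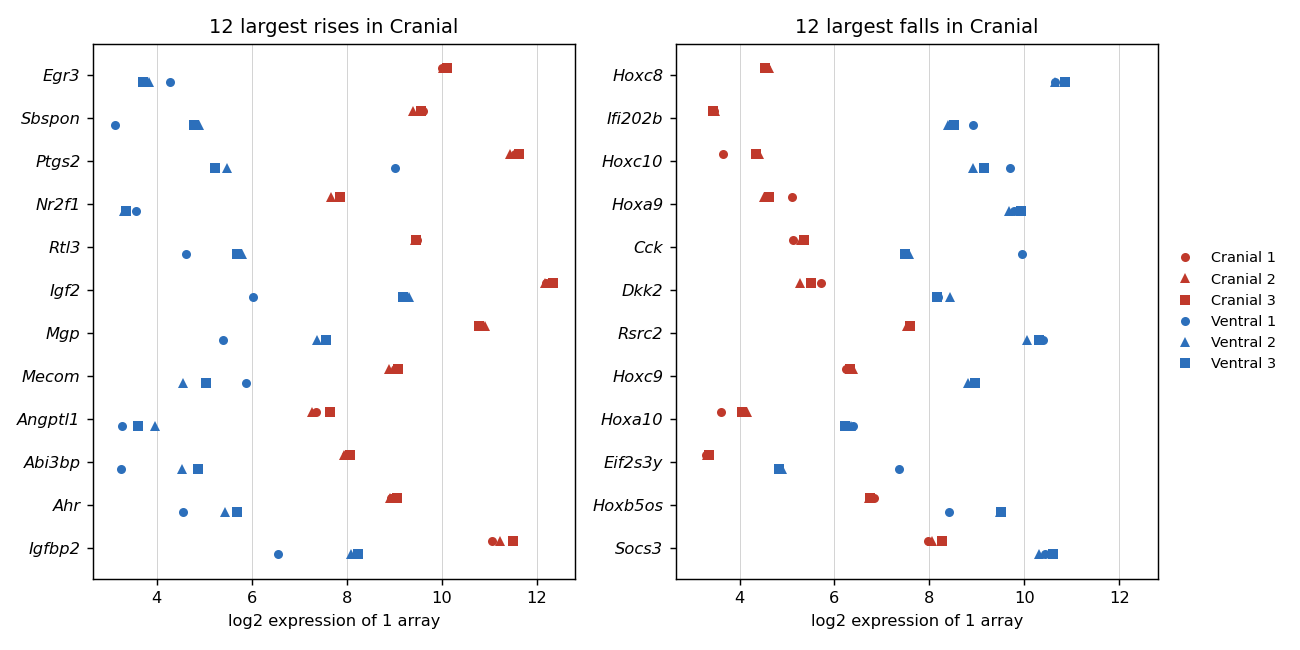
Each marker is the log2 expression of 1 array for the 12 genes with the largest rise (left panel) and the 12 with the largest fall (right panel), with Cranial arrays in red above Ventral arrays in blue and the marker shape giving the array number. In every gene shown the 3 Cranial arrays keep to 1 side of the 3 Ventral arrays, as they do in 54.9% of all genes, and the genes were picked for their size of difference. Ventral 1 (blue circle) is set off from Ventral 2 and 3 in Ptgs2, Igf2, Mgp, Cck and Eif2s3y.

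Across the 4 clusters, the Hox genes that fell in Cranial cells lay in paralog groups 4 to 11 of HoxA, HoxB and HoxC, though not every gene there was called. Of 33 Hox genes measured, 3 were higher and 15 lower, against 11.7% and 6.2% of all genes, with a median difference of -0.46, where that of all genes was -0.06. HoxC gave 0 higher and 6 lower of 7, HoxA 1 and 5 of 9, HoxB 0 and 4 of 9, and HoxD 2 and 0 of 8. In HoxC the 6 genes measured from Hoxc4 to Hoxc10 fell and Hoxc13 was not called: Hoxc9 was at 6.25, 6.40 and 6.32 in Cranial and 8.93, 8.80 and 8.96 in Ventral (-2.57 ± 0.14), and Hoxc4, Hoxc5 (11 of 16 settings) and Hoxc6 fell by 1.22, 1.37 and 0.88. In HoxA, Hoxa10 was at 3.61, 4.16 and 4.06 in Cranial, near background, and 6.39, 6.35 and 6.22 in Ventral (-2.37 ± 0.30, called in 15 of 16 settings). Hoxa7 fell by 1.25, Hoxa5 by 1.18 (9 of 16 settings) and Hoxa11 by 0.93 (11 of 15 settings). In HoxB, Hoxb6 was at 3.43, 3.54 and 3.71 in Cranial, near background, against 6.30, 5.27 and 5.55 in Ventral (-2.15 ± 0.23). Hoxb4 fell by 1.49, Hoxb9 by 1.21 and Hoxb5 by 0.99 (12 of 15 settings). Without Ventral 1 the counts were 3 higher and 12 lower at a median of -0.29, and Hoxa5, Hoxa11 and Hoxc5 were no longer called (-1.19, -0.68 and -1.19; adjusted p = 0.0750, 0.0756 and 0.0844).

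The 3 Hox genes that rose were Hoxa2, Hoxd3 and Hoxd8. Hoxa2, which patterns the skeleton of the second pharyngeal arch, was at 5.06, 4.82 and 5.19 in Cranial arrays, against 3.22, 3.17 and 3.31 in Ventral arrays, near background (1.79 ± 0.15, adjusted p = 4.42e-05). Hoxd3 was at 5.89, 5.75 and 5.83 in Cranial and 5.20, 4.81 and 5.19 in Ventral (0.76 ± 0.17, 13 of 16 settings). Hoxd8, which by its number belongs with the genes of the trunk, was high at both sites, at 9.17, 9.11 and 9.28 in Cranial and 6.93, 8.38 and 8.32 in Ventral. Its difference of 1.31 ± 0.35 was called in 12 of 16 settings and was 0.84 without Ventral 1 (adjusted p = 0.0459). Hoxd9, chosen after its values were seen, was likewise high at both, at 8.06, 8.02 and 8.36 in Cranial and 7.11, 7.70 and 7.83 in Ventral, and was not called. Cranial cells were not without Hox transcripts, with means of 9.19 for Hoxd8, 8.15 for Hoxd9 and 7.44 for Hoxa5.

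**Figure D3:**
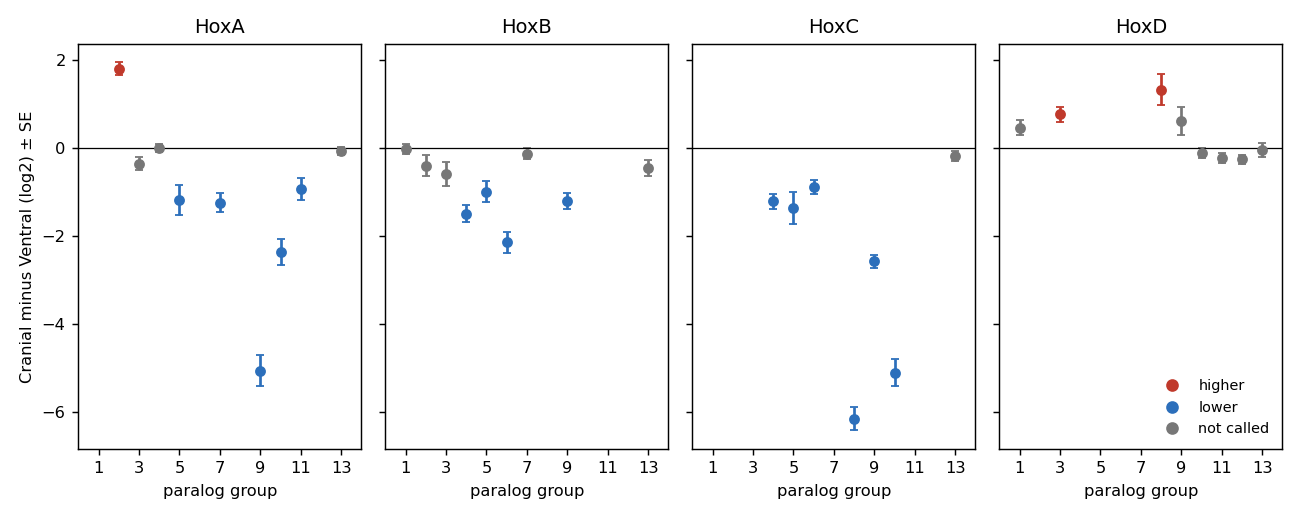
Each point is the Cranial minus Ventral log2 difference of 1 Hox gene, with its SE from limma, set by paralog group within the HoxA, HoxB, HoxC and HoxD clusters. The falls (blue) run from group 4 to group 11 in HoxA, HoxB and HoxC and reach -6.14 at Hoxc8, whereas the calls in HoxD, at groups 3 and 8, are rises (red).

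Of 36 transcription factors that pattern the face and skull, 13 were higher in Cranial cells, 0 lower and 23 not called, with a median difference of 0.12, and the counts were 14 and 0 both without Ventral 1 and after quantile normalization. Dlx2, a homeobox factor of the pharyngeal arches, was at 7.50, 7.49 and 7.83 in Cranial arrays, against 5.20, 4.82 and 4.94 in Ventral arrays (2.62 ± 0.15, adjusted p = 4.08e-06). Lhx8, which acts in tooth and palate mesenchyme, was at 8.08, 7.95 and 8.20 in Cranial and 5.30, 5.90 and 6.24 in Ventral (2.26 ± 0.19). Pax3, which acts in neural crest and muscle precursors, was at 7.08, 7.03 and 7.0 in Cranial and 5.43, 5.19 and 5.59 in Ventral (1.63 ± 0.12). Eya1, a phosphatase and coactivator of developing sense organs, rose by 1.65 ± 0.25. The remaining 9 called members rose by 0.55 (Tfap2a) to 1.42 (Dlx1), both chosen after their values were seen. Six2, a homeobox factor of facial mesenchyme, was dim in both groups, at 5.53 to 5.73 in Cranial and 5.42 to 5.59 in Ventral. Pitx1, a factor of the jaw and hindlimb, was at 5.16 to 5.36 in Cranial and 5.46 to 5.53 in Ventral, and neither was called.

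Factors of trunk and general dermis did not move as a set, with 10 of 45 higher, 2 lower and a median difference of 0.03, which was -0.03 after quantile normalization (7 higher and 1 lower without Ventral 1). Zic1, a zinc finger factor known from dorsal somites and the meninges, was at 8.0, 7.92 and 8.20 in Cranial, against 4.03, 4.51 and 4.88 in Ventral (3.57 ± 0.31, adjusted p = 5.87e-05). Meox2, a homeobox factor of somites and limb muscle, was at 7.08, 7.12 and 7.31 in Cranial and 3.74, 4.26 and 4.40 in Ventral (3.04 ± 0.30). Foxc1, a forkhead factor of skull and eye mesenchyme, was at 7.36, 7.24 and 7.36 in Cranial and 5.48, 4.56 and 4.35 in Ventral (2.52 ± 0.33). Tbx5, which specifies the forelimb and its flank, went the other way, at 6.15, 6.06 and 5.99 in Cranial and 6.90, 7.40 and 7.15 in Ventral (-1.08 ± 0.18). En2 fell by 0.38 at levels near background (7 of 15 settings, -0.35 and adjusted p = 0.102 without Ventral 1).

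Beside Igf2, 3 of its binding protein genes rose: Igfbp2, Igfbp4 and, chosen after its values were seen, Igfbp5 (1.31). In the list of FGF, PDGF and IGF signalling, 8 of 34 genes were higher and 4 lower (the same counts without Ventral 1), with a median of 0.64. Igfbp4, another binding protein of the factors, was at 12.41, 12.54 and 12.79 in Cranial, against 8.63, 9.22 and 9.80 in Ventral (3.36 ± 0.35), and 4 of its 5 other probe sets were called the same way. Spry2, a feedback inhibitor of FGF receptors, was at 9.30, 9.24 and 9.40 in Cranial and 6.57, 7.33 and 7.50 in Ventral (2.18 ± 0.24). Fgf10, a mesenchymal growth factor for epithelium, was lower, at 5.41, 5.46 and 5.50 in Cranial and 6.73, 6.67 and 6.90 in Ventral (-1.31 ± 0.22). Fgf5, the factor that ends hair growth, fell by 0.71 (14 of 15 settings) and Fgfr4, a receptor, by 0.63 (15 of 16 settings).

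In the TGF-beta and BMP pathway, 10 of 41 genes were higher and 2 lower, with a median of 0.32 (11 and 0 without Ventral 1). Bmp5, a ligand active in ear and skeletal cartilage, was at 7.90, 7.90 and 8.59 in Cranial arrays, against 5.06, 4.64 and 4.73 in Ventral arrays (3.32 ± 0.21, adjusted p = 5.76e-06). Id1, a target of BMP signalling that inhibits helix-loop-helix factors, was at 10.41, 10.36 and 10.64 in Cranial and 8.15, 6.34 and 6.83 in Ventral (3.36 ± 0.65). Id2, of the same family, rose by 2.75 ± 0.65 (12 of 16 settings, where one choice of probe sets gave 0.39). Bmper, a secreted BMP binding protein, rose by 1.74 ± 0.25. The 2 genes that fell encode extracellular antagonists: Grem1 was at 10.55, 10.49 and 10.33 in Cranial and 11.46, 11.28 and 11.42 in Ventral (-0.93 ± 0.25, 8 of 15 settings, adjusted p = 0.0712 without Ventral 1), and Fstl3 fell by 0.84 (12 of 16 settings, -0.53 and adjusted p = 0.0529 without Ventral 1).

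Wnt pathway genes moved in both directions, 10 of 50 higher and 7 lower with and without Ventral 1, at a median of 0.10 (0.002 without it). Among the ligand-side genes, Rspo2, an R-spondin that amplifies Wnt signals, was at 7.89, 7.82 and 8.02 in Cranial, against 5.87, 5.07 and 5.05 in Ventral (2.58 ± 0.45). Ror1, a Wnt5a receptor, rose by 2.17 ± 0.18 and Fzd7, a Frizzled receptor, by 1.94 ± 0.34. None of their other probe sets was called (-0.33 and -0.29 for Ror1, -0.06 for Fzd7). A pair of inhibitors fell beside Dkk2: Apcdd1 was at 8.48, 8.43 and 8.73 in Cranial and 10.31, 10.37 and 10.45 in Ventral (-1.83 ± 0.37, 15 of 16 settings), and Frzb was at 4.07, 4.0 and 4.07 in Cranial, near background, and 5.68, 6.02 and 5.84 in Ventral (-1.80 ± 0.40). Sfrp1, another inhibitor, stood on the other side, at 10.21, 10.26 and 10.39 in Cranial and 6.19, 8.94 and 8.89 in Ventral, but its difference of 2.28 was called in 10 of 16 settings and was 1.37 without Ventral 1 (adjusted p = 0.0968). Lgr6, a receptor for R-spondins, fell by 1.63 (12 of 16 settings, -1.15 and adjusted p = 0.0502 without Ventral 1).

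Retinoic acid genes gave 2 of 17 higher and 1 lower, shares near those of all genes (2 and 3 without Ventral 1). Crabp2, which carries retinoic acid to its receptors, was at 7.86, 7.65 and 7.96 in Cranial, against 5.26, 5.33 and 5.69 in Ventral (2.40 ± 0.21), and the receptor gene Rarg rose by 1.42 ± 0.17. Aldh1a3, a synthesis enzyme, fell by 0.83 (11 of 16 settings). Of 24 Hedgehog and Notch genes 6 were higher and 2 lower (3 and 0 without Ventral 1), and the receptor-side genes Cdon and Smo rose by 1.13 ± 0.18 and 0.78 ± 0.11 with Ventral 1 left in or out (0.91 and 0.76 without it). Among 35 guidance genes 4 were higher and 3 lower. Epha3, an ephrin receptor, was at 9.44, 9.33 and 9.35 in Cranial and 6.75, 6.48 and 6.56 in Ventral (2.77 ± 0.24), though none of its 3 other probe sets was called. Epha4, of the same family, fell by 1.31 (15 of 16 settings), with 1 other probe set called the same way and 1 the other way. Sema3d, a secreted semaphorin, rose by 1.84 ± 0.28 and Efnb2, an ephrin ligand, by 1.61 ± 0.28.

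Immediate early genes, which cells switch on within minutes of a stimulus, were often higher in Cranial cells. Of 40 immediate early and stress genes 16 were higher and 2 lower, with a median of 0.77 (13 and 2 without Ventral 1, median 0.72; 14 and 3 after quantile normalization). Besides Egr3, the leading genes were Egr2, Myc and Atf3. Egr2, a zinc finger factor close to Egr3, was at 11.15, 11.05 and 11.46 in Cranial, against 8.45, 8.27 and 8.16 in Ventral (2.93 ± 0.33, adjusted p = 0.000292). Myc, a driver of growth, was at 9.32, 9.25 and 9.48 in Cranial and 6.73, 6.52 and 6.33 in Ventral (2.82 ± 0.28). Atf3, a stress-induced factor, was at 9.12, 9.17 and 9.42 in Cranial and 6.89, 6.65 and 6.60 in Ventral (2.53 ± 0.26). Not every member of the class took part, and 22 of the 40 were not called. Among these were Fos, Fosb, Fosl2, Junb, Nr4a2, Nr4a3 and Klf6, while Jun, Jund and Nr4a1 were higher, all chosen after their values were seen. Fos was at 12.68, 12.65 and 12.96 in Cranial and 10.94, 12.19 and 12.11 in Ventral (limma adjusted p = 0.121). Socs3 and Gadd45b fell, Gadd45b, a stress-induced growth regulator, by 1.43 (9 of 16 settings, -1.12 and adjusted p = 0.121 without Ventral 1).

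The promoters of these genes were searched for 3 motifs known to serve immediate early genes: the CArG box bound by serum response factor, TGACGTCA, bound by CREB and related factors, and GCGTGGGCG, bound by EGR factors. RefSeq windows of 250 bases before to 50 after the gene start, in build GRCm38.p6, were available for 12 of the 16 genes that rose, and both strands were searched. Egr3 and Myc were not among the 12. A CArG box was found in 2 of the 12 (Egr2 and Zfp36), against 488 of 27025 genes (1.81%), and TGACGTCA in 2 of the 12 (Dusp1 and Btg2), against 549 of 27025 genes (2.03%). GCGTGGGCG was in 0 of the 12 and in 191 of all genes (0.707%), no motif was found in 19 listed genes that were not called, and no match overlapped another of these motifs. A match is a description of the letters and not a binding site or a cause. Dusp1, a phosphatase that switches off MAP kinases, was at 12.41, 12.36 and 12.66 in Cranial, against 10.81, 10.15 and 10.09 in Ventral (2.13 ± 0.22). Btg2, an inhibitor of proliferation, rose by 2.04 ± 0.28, and Zfp36, which destabilizes messenger RNA, by 1.69 ± 0.24. These 3 were chosen for their motif after their values were seen, and they kept their calls without Ventral 1. The 250 bases before the start of the 4 genes with a match are shown to give the motif its context, 5′ to 3′ on the strand of the gene and with the motif in capitals. The windows are chr10:67537316-67537565 on the plus strand for Egr2 (1 of 5 windows of the gene), and on the minus strand chr7:28379229-28379478 for Zfp36, chr17:26508473-26508722 for Dusp1 and chr1:134079156-134079405 for Btg2.
Egr2: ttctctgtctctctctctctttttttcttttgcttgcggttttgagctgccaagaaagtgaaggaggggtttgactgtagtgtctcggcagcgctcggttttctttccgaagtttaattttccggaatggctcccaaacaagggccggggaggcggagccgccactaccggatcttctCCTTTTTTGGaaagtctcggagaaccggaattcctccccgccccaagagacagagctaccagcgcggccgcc
Zfp36: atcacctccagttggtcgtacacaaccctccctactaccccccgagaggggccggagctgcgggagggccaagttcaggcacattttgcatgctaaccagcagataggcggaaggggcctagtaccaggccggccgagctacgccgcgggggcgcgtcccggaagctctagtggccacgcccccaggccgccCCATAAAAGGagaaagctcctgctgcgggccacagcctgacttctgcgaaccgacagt
Dusp1: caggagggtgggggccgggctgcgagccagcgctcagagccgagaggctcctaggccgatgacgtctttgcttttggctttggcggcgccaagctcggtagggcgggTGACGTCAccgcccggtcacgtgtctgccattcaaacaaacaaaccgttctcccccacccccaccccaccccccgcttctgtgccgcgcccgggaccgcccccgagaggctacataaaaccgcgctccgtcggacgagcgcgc
Btg2: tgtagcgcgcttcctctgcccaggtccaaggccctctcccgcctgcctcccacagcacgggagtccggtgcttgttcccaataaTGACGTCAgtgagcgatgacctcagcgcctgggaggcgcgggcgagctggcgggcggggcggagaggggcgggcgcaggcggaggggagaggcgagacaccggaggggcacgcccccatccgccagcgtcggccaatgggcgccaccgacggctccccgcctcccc
Counted back from the start, the CArG box lies at -72 to -63 in Egr2 and -58 to -49 in Zfp36, and TGACGTCA at -143 to -136 in Dusp1 and -166 to -159 in Btg2.

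Most matrix genes were not called, as over all genes, of which 11.7% were higher and 6.2% lower. Of 52 glycoproteins, proteoglycans and elastic fibre genes 12 were higher and 1 lower (12 and 3 without Ventral 1), with a median of 0.33. Eln, the gene of elastin, was at 8.31, 8.34 and 8.44 in Cranial, against 5.07, 6.64 and 6.77 in Ventral (2.20 ± 0.48, 1.66 without Ventral 1). Acan, the cartilage proteoglycan aggrecan, was at 7.21, 7.09 and 7.10 in Cranial and 4.99, 5.18 and 5.67 in Ventral (1.85 ± 0.17). Thbs2, a thrombospondin, was the member that fell, at 10.97, 11.004 and 11.38 in Cranial and 11.62, 11.81 and 11.96 in Ventral (-0.68 ± 0.19, 10 of 16 settings). Lum, the proteoglycan lumican, was chosen after its values were seen: it stood at 11.10, 11.16 and 11.46 in Cranial, against 5.65, 9.55 and 9.62 in Ventral, and was not called (adjusted p = 0.0724). Ventral 1 lay far below the other two, and without it the difference was 1.66 (adjusted p = 0.197).

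Among 30 collagens 5 were higher and 1 lower (4 and 0 without Ventral 1), beside 11.7% and 6.2% of all genes. Col8a1, a short-chain network collagen, was at 10.94, 10.97 and 11.30 in Cranial arrays and 9.86, 7.49 and 7.36 in Ventral arrays (2.83 ± 0.57, and 3.64 without Ventral 1), and both its other probe sets were called the same way. Col4a5, of basement membranes, rose by 2.11 ± 0.39 and Col11a1, a fibrillar collagen of cartilage, by 1.86 ± 0.35. Col14a1, a fibril-associated collagen, rose by 1.91 in 8 of 16 settings (1.34 and adjusted p = 0.112 without Ventral 1). The bulk fibrillar collagen Col1a1, chosen after its values were seen, was at 13.08 to 13.44 in Cranial and 13.26 to 13.38 in Ventral and was not called. Crosslinking enzymes and proteases gave 7 of 43 higher and 1 lower, at a median of 0.15 (9 and 3 without Ventral 1, median 0.17). After quantile normalization 3 were higher and 5 lower at a median of 0.15, so the direction of the counts depends on the scaling. Plat, the tissue plasminogen activator, was at 9.81, 9.68 and 10.04 in Cranial and 8.37, 8.23 and 8.53 in Ventral (1.47 ± 0.17).

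Of 33 integrin and adhesion genes 10 were higher and 2 lower (7 and 1 without Ventral 1). Cdh11, a cadherin of mesenchyme, was at 12.29, 12.29 and 12.57 in Cranial, against 11.34, 10.94 and 10.97 in Ventral (1.30 ± 0.16, 15 of 16 settings). Cdh2, or N-cadherin, was at 9.39, 9.33 and 10.05 in Cranial and 8.20, 4.76 and 5.33 in Ventral; the difference of 3.49 ± 0.91 was called in 10 of 16 settings and was 4.55 without Ventral 1. Vcam1, an adhesion receptor for leukocytes, rose by 1.35 ± 0.17. Cd44, the hyaluronan receptor, fell, at 9.71, 9.70 and 9.91 in Cranial and 12.14, 10.87 and 10.86 in Ventral (-1.52 ± 0.30, 15 of 16 settings). Tendon, ligament and meningeal genes gave 7 of 19 higher and 1 lower (5 and 0 without Ventral 1). Tnmd, a membrane protein of tendon, was at 9.98, 9.98 and 10.37 in Cranial and 6.29, 8.16 and 8.03 in Ventral (2.62 ± 0.58, 15 of 16 settings, 2.02 without Ventral 1), and Mkx, a tendon homeobox factor, rose by 1.88 ± 0.37 over a Ventral level near background. Zic1 and Foxc1, described above, are also on that list.

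Markers of dermal layers did not all point to 1 layer. Of 15 reticular and hypodermal fibroblast genes 5 were higher and 2 lower, with a median of 0.82 (4 and 2 without Ventral 1). Mgp, Eln and Col11a1 rose, whereas Ppp1r14a, an inhibitor of myosin phosphatase, was at 7.42, 7.46 and 7.51 in Cranial and 9.59, 8.49 and 8.66 in Ventral (-1.45 ± 0.24), and the fatty acid carrier Fabp4 fell by 1.48 (12 of 16 settings). Of 14 papillary genes 1 was higher, Axin2, a target of Wnt signalling (0.79 ± 0.12), and 1 lower, Apcdd1. Without Ventral 1 the papillary counts were 1 and 2. Of 15 adventitial genes 1 was higher and 1 lower (1 and 0 without Ventral 1), and of 25 dermal papilla and sheath genes 2 were higher, Rspo2 and Crabp2, and 1 lower, Fgf10 (2 and 2 without Ventral 1). In adipocyte genes 2 of 18 were higher and 2 lower, beside 11.7% and 6.2% of all genes (2 and 4 both without Ventral 1 and after quantile normalization). Zfp423, a factor of preadipocytes, rose by 1.67 ± 0.27, and Pparg, the master factor of fat cells, was at 6.54, 6.34 and 6.42 in Cranial and 7.27, 7.80 and 7.76 in Ventral (-1.18 ± 0.29, 10 of 15 settings).

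Of 45 chemokine, cytokine and complement genes 6 were higher and 2 lower (5 and 1 without Ventral 1), shares near the 11.7% and 6.2% of all genes. After Ptgs2, Ptgis, the prostacyclin synthase, rose by 1.45 ± 0.22. Cxcl2, a neutrophil attractant, was at 5.43, 5.17 and 5.21 in Cranial, against 8.37, 6.86 and 7.03 in Ventral (-2.15 ± 0.43). Tnfsf11, the cytokine RANKL, was at 6.87, 6.58 and 6.91 in Cranial and 6.16, 3.79 and 3.76 in Ventral, a difference of 2.22 called in 11 of 16 settings and 3.01 without Ventral 1. Ddit4, an inhibitor of mTOR induced by stress and low oxygen, fell in the glycolysis and hypoxia list, at 8.27, 8.06 and 8.28 in Cranial and 11.05, 10.24 and 10.32 in Ventral (-2.33 ± 0.21, adjusted p = 6.78e-05), while 4 of that list's 21 genes rose, among them Bnip3, a mitochondrial protein, by 1.04 ± 0.22.

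The count of interferon-inducible genes did not hold without Ventral 1. List counts were not recomputed without any other single array, so the loss cannot be laid to Ventral 1 in particular. With all arrays 6 of 40 were higher and 0 lower in Cranial, at a median of 0.73. Without Ventral 1, 0 of the 40 were called, at a median of 0.41 (after quantile normalization 3 were higher and 1 lower). Ifi202b is not on the list. Oasl2, an antiviral gene, was at 8.37, 8.36 and 8.12 in Cranial and 4.54, 6.45 and 6.16 in Ventral (2.57 in 11 of 15 settings, and 1.98 with adjusted p = 0.0627 without Ventral 1), and Gbp2, a guanylate-binding protein, was at 8.78, 8.78 and 8.75 in Cranial and 5.73, 6.79 and 6.78 in Ventral (2.34 in 9 of 16 settings, and 1.99 with adjusted p = 0.123). The SE behind these p-values pools the spread of all 12 site arrays. The SD in Dorsal arrays was 1.86 for Gbp2 and 1.46 for Oasl2, against 0.61 and 1.03 in Ventral arrays. A lost call here therefore also reflects spread outside the Cranial and Ventral arrays. Few proliferation genes were called, 1 of 36 cell cycle genes higher and 1 lower (1 and 4 after quantile normalization). Mki67, a marker of dividing cells chosen after its values were seen, was high at 10.40 to 10.58 in Cranial and 11.03 to 11.12 in Ventral, and was not called. Ccnd1, cyclin D1, was the gene that fell, at 8.01, 7.87 and 8.39 in Cranial and 10.11, 9.14 and 9.50 in Ventral (-1.49 ± 0.29). Cdkn1c, an inhibitor of the cycle, was the gene that rose, at 11.12, 11.13 and 11.29 in Cranial and 6.09, 9.44 and 9.48 in Ventral (2.84 ± 0.75, 13 of 16 settings, 1.72 without Ventral 1). Of 26 cholesterol and lipid synthesis genes 0 were higher and 1 lower, with 6 lower after quantile normalization and 0 without Ventral 1.

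**Figure D4:**
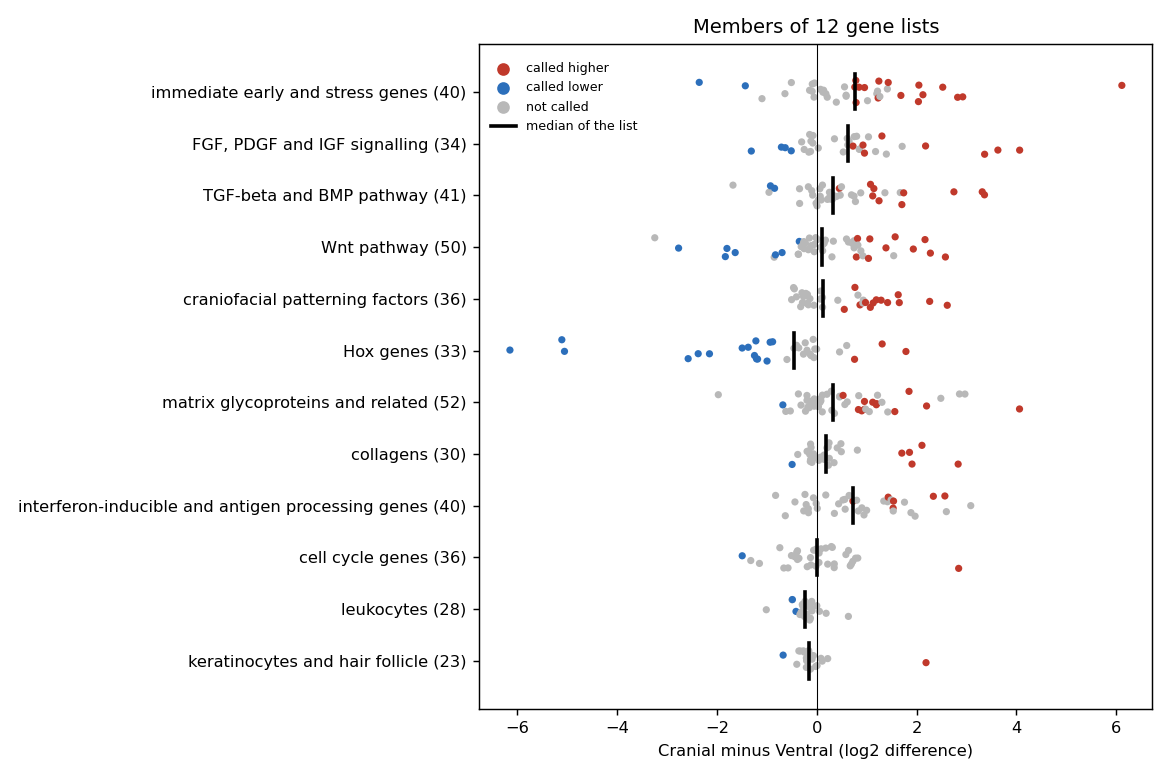
Each point is the Cranial minus Ventral log2 difference of 1 gene, grouped into 12 lists with the number of genes measured in parentheses, and the black bar is the median of the list. Immediate early genes (median 0.77) and interferon-inducible genes (0.73) lie mostly to the right of 0 and Hox genes (-0.46) to the left, while few leukocyte or keratinocyte genes are called.

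Markers of cells that the sort was set to remove were low on average at both sites, though some were well above background. Among these were Flt1, Kdr and, on the brighter of its 2 probe sets, Epcam. The mean level over 28 leukocyte genes was 4.84 to 4.92 in Cranial arrays and 5.06 to 5.08 in Ventral arrays, with 0 higher and 2 lower (0 and 0 without Ventral 1), and that over 23 keratinocyte genes was 4.74 to 4.78 and 4.79 to 4.85, with 1 higher and 1 lower. Perp, a desmosome gene, was the 1 that rose, at 6.73, 6.75 and 7.28 in Cranial and 4.97, 4.57 and 4.65 in Ventral (2.19 ± 0.16, 15 of 16 settings), with Krt14 dim throughout. Endothelial genes averaged 4.91 to 4.95 in Cranial and 5.13 to 5.22 in Ventral, with 1 of 20 higher, Tek (0.52 in 10 of 15 settings, dim in both groups), and 4 lower (1 and 2 without Ventral 1). Flt1, a VEGF receptor, was at 6.07, 6.20 and 6.31 in Cranial and 7.40, 8.80 and 8.44 in Ventral (-2.02 ± 0.33), and Kdr, the other main VEGF receptor, fell by 0.56 (15 of 16 settings), while Pecam1 was near background. Among 20 genes of mural cells and smooth muscle, 4 were higher and 3 lower (3 and 1 without Ventral 1), at a median of -0.11. Abcc9, a potassium channel subunit of pericytes, rose by 1.86 ± 0.33 (14 of 15 settings), and its partner Kcnj8 by 1.12 ± 0.21. The other probe sets of Abcc9 were not called (0.095 and 0.183). Smtn and Notch3 rose by 1.21 and 0.79 (9 of 16 settings for Notch3). The 3 falls were Myh11 (-1.06, 8 of 15 settings), Lmod1 (-0.70, 11 of 16 settings) and Myocd (-0.55, 8 of 15 settings). Melanocyte genes gave 0 of 12 higher and 3 lower, muscle 0 of 23 and 1, Schwann cells and neurons 1 of 18 and 2, bone and cartilage 3 of 18 and 3, and erythroid genes 1 of 6 and 1. Without Ventral 1 the falls were 2 for muscle, 1 for bone and cartilage and 0 for erythroid genes. In such mixtures fewer cells of a type and less RNA per cell cannot be told apart, and the part of other cell types in the differences was not tested.

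Set beside Oral against Dorsal, which uses other arrays of the same lines, part of the Cranial against Ventral difference was seen again. Both contrasts come from the same fit and share its SE for each gene. A gene with a small pooled spread is therefore more easily called in both, and the shared counts are not independent replication. Limma called 3065 genes (16.8%) for Oral minus Dorsal. Of the 2123 genes higher in Cranial, 1169 were also higher in Oral (55.1% of them, and 60.9% of the genes higher in Oral), and of the 1128 lower in Cranial, 452 were also lower in Oral (40.1% and 39.4%). The difference between the contrasts was called for 83 of the 3251 genes, and for 120 of all genes (0.66%). Hoxc8, Hoxa9, Ifi202b, Nr2f1 and Igf2 belonged to the shared part: Oral and Dorsal means were 3.52 and 10.73 for Hoxc8, 4.44 and 9.69 for Hoxa9, 3.08 and 9.76 for Ifi202b, 8.62 and 3.95 for Nr2f1 and 12.30 and 8.36 for Igf2. Differences held by both pairs are those in which the reporter line and the part of the body, head or trunk, go together. Eif2s3y of the Y chromosome parted both pairs the same way, with means of 3.24 in Oral and 7.20 in Dorsal (-3.96, limma adjusted p = 0.000785). Kdm5d, Uty and Xist were not called for Oral minus Dorsal, and the part of sex in the shared differences was not tested. Over all genes 10.5% were higher and 6.3% lower in Oral than in Dorsal. In the immediate early list 14 of 40 were higher in Oral and 1 lower, and interferon-inducible genes gave 0 of 40 higher and 10 lower in Oral against Dorsal.

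Other genes parted Cranial from Ventral more, less or in another direction than they parted Oral from Dorsal. Zic1 was 3.57 higher in Cranial than in Ventral, while its Oral and Dorsal means were 3.23 and 9.59, and the difference of the contrasts was 9.93 ± 0.44 (adjusted p = 1.83e-06). Hoxd8 stood at means of 5.34 in Oral and 8.76 in Dorsal, so it was higher in Cranial than in Ventral but lower in Oral than in Dorsal (4.74 ± 0.50). Bmp5 and Hoxa2 were raised in Cranial cells, with Oral and Dorsal means of 5.54 and 4.69 for Bmp5 and 3.18 and 3.35 for Hoxa2 (differences of the contrasts 2.46 ± 0.29 and 1.95 ± 0.21). Six2 and Pitx1 were not called for Cranial against Ventral and had Oral means of 8.65 and 7.56, against Dorsal means of 5.40 and 5.21 (-3.13 ± 0.26 and -2.56 ± 0.20). Lhx8 and Pax3 rose in both pairs, and by more in Oral, where the means were 10.90 and 8.95, than in Cranial.

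**Figure D5:**
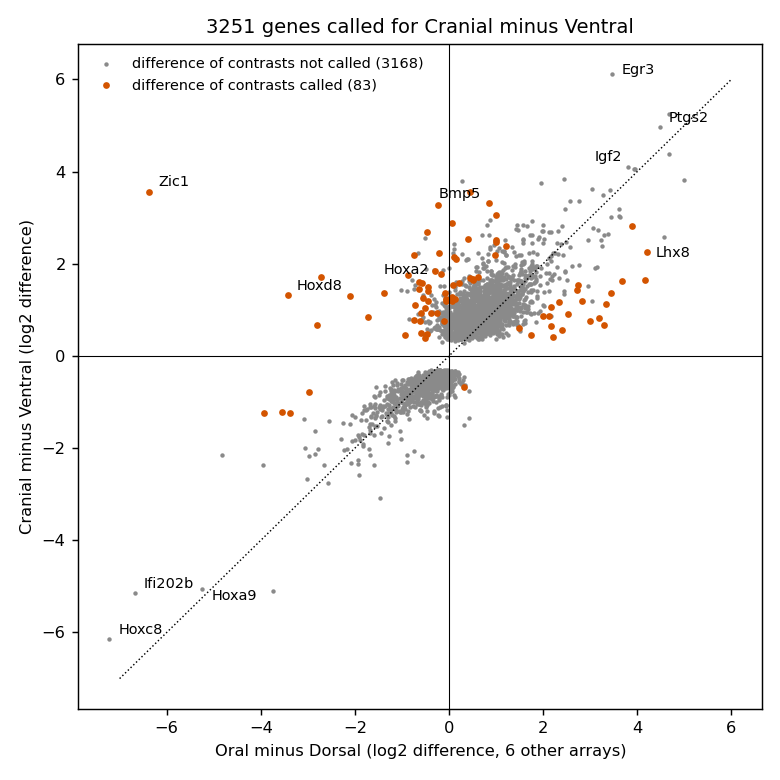
Each point is 1 of the 3251 genes called for Cranial minus Ventral, with the Oral minus Dorsal log2 difference from 6 other arrays on the horizontal axis and the Cranial minus Ventral difference on the vertical axis, and the dotted line marks equal differences. Orange points are the 83 genes in which the 2 differences differ by the test; Zic1 and Hoxd8 lie in the upper left, with opposite directions, and Hoxc8, Hoxa9 and Ifi202b near the line in the lower left.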

How the data were processed

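RNA of sorted cells was measured on 1-colour Affymetrix mouse arrays, 1 array per sample. The deposited log2 values per probe set were computed by the authors with RMA, the robust multichip average, which quantile normalizes the arrays, per the labels and the submitters' processing notes. No software version is given there. Of 45037 probe sets without controls, 34945 had 1 gene symbol, 932 several and 9160 none in the platform annotation, and each of 18193 genes was represented by the brightest of its probe sets, by the mean of all 18 arrays. Genes were named by symbols of that annotation, of which 34741 probe sets matched GRCm38.p6 by identifier.

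All p-values come from limma 3.58.1 in R 4.3.3: 1 fit of the 12 arrays of the 4 sites, with a mean per group and 8 residual degrees of freedom, Benjamini-Hochberg adjustment over 18193 genes and a call at an adjusted p under 0.05. On simulated data with 200 changed genes among 18193, this fit called 64 of 100 genes changed by 1 and 89 of 100 changed by 2 on the log2 scale, with 7 unchanged genes called. The simulated noise was normal, with the same spread for a gene in all 4 groups and no array set apart. In the data, groups and arrays differ in spread, so these counts need not hold there. The number of arrays, 3 per group, limits the precision. Named genes are the 12 largest called rises and falls, at most 4 called members of each list in each direction (in a list without calls, the member that differed most), the called Hox genes, the genes of the sort markers and drivers, sex-linked genes, and up to 5 genes per direction for the comparison with Oral and Dorsal. Members and gene lists were chosen with earlier results of these data known, and the list of imprinted genes after the values were seen. Alternatives changed the arrays in the fit, the prior, array weights, a filter at a mean of 5, normalization, the probe set rule, a replicate block and each array left out.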

Additional observations from a re-analysis of the deposited data

Results flagged for a closer look

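The difference of the contrasts, Cranial minus Ventral less Oral minus Dorsal, was called by limma for 120 genes, and 21 of the genes named by rule are among them. It was largest for Zic1, at 9.93 (3.57 for Cranial minus Ventral and -6.37 for Oral minus Dorsal). Lgr5, a receptor of hair follicle stem cells, followed at 6.29 (1.54, not called, and -4.75, with 0.62 for Cranial minus Ventral without Ventral 1), then Hoxd8 at 4.74 (1.31 and -3.42), Clca3a1, a chloride channel accessory gene, at 4.43 (1.70 and -2.73, with 1.58 and adjusted p = 0.0637 for Cranial minus Ventral without Ventral 1) and C1qtnf3, a secreted protein of the C1q family, at 4.37 (1.08, not called, and -3.29, with 1.62 and adjusted p = 0.000608 for Cranial minus Ventral without Ventral 1). Ptger2, a prostaglandin receptor, gave 2.74 (1.36 and -1.38, with 1.18 and adjusted p = 0.0923 for Cranial minus Ventral without Ventral 1), Bmp5 2.46 (3.32 and 0.85), Hoxc4 2.34 (-1.22 and -3.55) and Efnb2 2.26 (1.61 and -0.65). Sema3d gave 2.15 (1.84 and -0.31), Hoxa2 1.95 (1.79 and -0.16), Hoxd3 1.38 (0.76 and -0.62) and Perp 1.21 (2.19 and 0.98).

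In the other direction, where Oral minus Dorsal was the larger, Six2 gave -3.13 (0.12 and 3.25), the transcript AI606473 -2.62 (0.66 and 3.28), Pitx1 -2.56 (-0.22 and 2.35) and Eya1 -2.51 (1.65 and 4.16). Aldh1a2, an enzyme of retinoic acid synthesis, gave -2.43 (0.32 and 2.75), Gap43, a protein of growing axons, -2.08 (1.36 and 3.45), Pax3 -2.04 (1.63 and 3.68) and Lhx8 -1.94 (2.26 and 4.20). The causes were not tested.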

How the results depend on the processing

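The count of genes called for Cranial minus Ventral, 3251, was 6684 with only the 6 arrays in the fit, 8854 (4619 higher, 4235 lower) with array weights, 8423 in a fit of 5 arrays without Ventral 1 (chosen after seeing the data), 1364 at an adjusted p under 0.01, and 6153 of 34945 when each probe set was tested. Leaving out 1 array at a time gave 1641 to 2350. For Oral minus Dorsal (3065) the count was 1065 with 6 arrays, 8963 with array weights and 1770 to 5623 with 1 array left out, highest without Dorsal 1. For the difference of the contrasts (120) it was 1413 with array weights and 65 to 345 with 1 array left out. Array weights were 0.356 for Ventral 1, 0.086 for Dorsal 1 and 0.235 for Dorsal 3. Replicate numbers did not pair the samples (r of deviations -0.018, 0.016 and -0.005 for Cranial and Ventral 1, 2 and 3), and with the replicate block 2748 genes were called for Cranial minus Ventral, 2760 for Oral minus Dorsal and 93 for their difference. Of 167 called genes named by rule, 82 were called in every setting. Without Cranial 1, 2 and 3 in turn 60, 46 and 64 of them were not called, and without Ventral 1, 2 and 3 42, 41 and 39. Over all named genes, 2864 values were recomputed: 2442 kept direction and side of the threshold, 394 were no longer called, 22 became called and 6 turned direction. All 6 did so when probe sets with names ending in _s_at, _x_at or _a_at were left out, so that another probe set stood for the gene: Pfkl (-0.49), Dlk1 (-0.041), Fbln1 (-0.076), Erg (0.36), Sema6a (0.31) and Col9a1 (0.16). The causes of the other changes were not tested. Signal near background limits 260 called genes, in which 1 group mean was at or below 4.08.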

Other observations

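Imprinted genes, a list made after the values were seen, hold several of the genes that were high in Cranial cells. Of 24 measured, 9 were higher and 1 lower at a median of 0.31, against 11.7% and 6.2% of all genes, and 6 and 0 without Ventral 1. Plagl1, a zinc finger regulator of growth, was at 12.56, 12.72 and 13.22 in Cranial arrays, against 9.70, 10.59 and 10.49 in Ventral arrays (2.58 ± 0.49, limma adjusted p = 0.00556). Grb10, an adaptor that restrains insulin and IGF receptors, was at 12.15, 12.14 and 12.46 in Cranial and 10.97, 11.25 and 11.11 in Ventral (1.14 ± 0.12, adjusted p = 0.000234). In neither gene do the groups overlap, but the Cranial arrays lay above all Ventral arrays in 27% of all genes. Mest, named for its mesodermal expression, was at 9.87, 9.996 and 10.29 in Cranial and 5.21, 8.35 and 8.06 in Ventral, and its difference of 2.85 was 1.85 without Ventral 1 (adjusted p = 0.0902). The noncoding Rian rose by 1.62 (1.42 without Ventral 1), while its neighbour Meg3 was not called (0.33), and Dlk1, from the same imprinted region, gave 1.52, or -0.04 with another probe set. Ndn, of the Prader-Willi region in human, went the other way, at 11.26, 11.21 and 11.50 in Cranial and 11.90, 11.76 and 11.81 in Ventral (-0.50, and -0.46 with adjusted p = 0.0910 without Ventral 1).

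Ifi202b split the 6 groups of the series into low and high ones. Its mean was 3.47 ± 0.02 in Cranial and 3.08 ± 0.15 in Oral, the head groups, of the Wnt1Cre line, against 8.61 ± 0.27 in Ventral, 9.76 ± 0.72 in Dorsal, and 9.87 ± 0.24 and 10.09 ± 0.23 in the groups titled ENF and EPF, all of the trunk and of the En1Cre line (SD, n = 3 each). ENF and EPF are labelled postnatal day 56 and the other groups day 30. Malat1, an abundant nuclear noncoding RNA chosen after its values were seen, split the same way at smaller size, with means of 11.11 in Cranial and 10.55 in Oral, against 13.10 in Ventral, 13.61 in Dorsal, 13.28 in ENF and 13.12 in EPF. Body region and line coincide in these groups as well and cannot be told apart, and the cause was not tested.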
